A study of Mus musculus with 2 samples.

Results

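The nuclear respiratory chain genes are the 93 features of the 21951 measured whose symbol starts with Nduf, Uqcr, Atp5 or Cox4 to Cox8. They were taken by name, with no measured value in the rule, though earlier results of these data were known. By symbol they divide into 40 complex I (Nduf) genes, 8 complex I assembly factors (Ndufaf), 8 complex III (Uqcr) genes, 18 complex IV (Cox4 to Cox8) genes, 18 ATP synthase (Atp5) genes and 1 pseudogene, Cox5b-ps. Ndufa4 and Ndufa4l2 were counted with complex I by symbol alone, whichever complex holds their proteins, and the sums by complex follow this. Of the 93, 92 had at least 1 UMI (a transcript counted once by its molecular identifier) in the 14348 barcodes that passed the quality limits, and Ndufb11b had none. The symbol Atp5o is carried by the gene itself and by a second, long model (ENSMUSG00000116933, chr16:91684398-91926982 in GRCm38, minus strand) that overlaps its end, so reads may be split between them and the second is reported as uncertain.

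One 10x library held 6 hashtagged samples of C57BL/6 pups, a control, an iSuRe-Cre and an iSuRe-HadCre group from heart and from liver. All pups received a single 40 mg/kg dose of 4-hydroxytamoxifen at postnatal day 3, and tissues were processed 3 days later. The iSuRe groups carried Cdh5-CreERT2, in which the Cdh5 promoter drives a tamoxifen-inducible Cre in endothelium. iSuRe-Cre is a transgene that, once recombined, keeps expressing Cre together with membrane Tomato, whereas iSuRe-HadCre sits in ROSA26 and expresses Cre only transiently before membrane Tomato. Both iSuRe groups were shown by the study as carrying floxed Notch1. The labels give 1 genotype, Cdh5-CreERT2 with iHadSuRe-Cre, for the pooled library, and the genotype of the controls beyond the word control was not found in them. Pups were P6-P7 when analysed, and CD31 and membrane Tomato were the sort criteria. Each group was 1 hashtagged sample of an unstated number of pups, so no test between groups was possible, and every interval below is an exact 95% interval that covers counting error only.

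The respiratory chain sits in the inner mitochondrial membrane. Complex I passes electrons from NADH to ubiquinone, complex III passes them on to cytochrome c, complex IV hands them to oxygen, and the proton gradient that results drives ATP synthase. Most subunits are encoded in the nucleus and imported, while a small core is encoded by mitochondrial DNA, so that both genomes supply each of these complexes. Several complex IV subunits exist as isoform pairs, one widespread and one found mainly in heart and skeletal muscle (Cox6a2, Cox7a1, Cox8b), in hypoxic, lung or mural cells (Cox4i2) or in testis (Cox6b2). Ndufa4l2 is a hypoxia-inducible relative of Ndufa4. Endothelial cells are known for covering much of their ATP demand by glycolysis.

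A member promoter was at hand for 74 of the 92 symbols (RefSeq starts, GRCm38.p6, windows from 250 bases before to 50 bases after the start). The palindromic NRF1 core, read on both strands like all motifs here, occurred in 16 of the 74 (21.6%), against 4.78% of all 27025 promoters of that length. The ETS core CCGGAAG, the letters bound by GABP, also occurred in 16 (21.6% against 9.12%), and the YY1 core AAGATGGC in 10 (13.5% against 2.88%). The hypoxia-response letters ACGTG occurred in 18 (24.3% against 19.7%), GCGTG in 39 (52.7% against 32.5%) and the ERR half-site AAGGTCA in 7 (9.46% against 4.66%). These matches describe letters only, not bound sites. The 250 bases before the start follow for 3 members. Ndufa8, an intermembrane-space subunit of complex I, was the member with the highest level in endothelial cells relative to other cell types (chr2:36049339-36049588, minus strand). Cox7a2l, a factor that links complexes III and IV into supercomplexes, was lower in both iSuRe heart groups than in control heart (chr17:83514334-83514583, minus strand). Atp5g1, one of 3 genes for subunit c of ATP synthase, had the largest range over cell types after the isoform genes and the second Atp5o feature (chr11:96075632-96075881, minus strand). Capitals mark the NRF1 core in Ndufa8 and ACGTG or its reverse complement in Atp5g1, and Cox7a2l held none of the NRF1, ETS, YY1, ACGTG or GCGTG letters in these bases.
Ndufa8: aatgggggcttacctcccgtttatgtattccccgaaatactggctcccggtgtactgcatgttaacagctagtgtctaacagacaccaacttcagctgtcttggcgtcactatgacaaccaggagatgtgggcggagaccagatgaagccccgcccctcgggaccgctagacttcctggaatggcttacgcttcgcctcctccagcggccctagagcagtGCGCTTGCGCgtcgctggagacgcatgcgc
Cox7a2l: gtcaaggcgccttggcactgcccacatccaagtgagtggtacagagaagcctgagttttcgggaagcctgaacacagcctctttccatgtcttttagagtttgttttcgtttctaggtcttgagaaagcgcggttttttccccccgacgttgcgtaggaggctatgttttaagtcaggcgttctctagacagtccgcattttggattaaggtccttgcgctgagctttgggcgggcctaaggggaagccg
Atp5g1: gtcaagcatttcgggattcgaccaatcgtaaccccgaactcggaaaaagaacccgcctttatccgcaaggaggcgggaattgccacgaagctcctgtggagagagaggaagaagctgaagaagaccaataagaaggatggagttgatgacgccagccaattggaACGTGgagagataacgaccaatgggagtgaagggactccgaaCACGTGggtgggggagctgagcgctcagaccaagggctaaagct

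Cells of a group were those with at least 25 UMIs of its hashtag (140 for HTO302, iSuRe-Cre liver), fewer of every other, and Cdh5 above 0.9 on the log-normalized scale. This left 254 heart cells of the control, 435 of the iSuRe-Cre and 311 of the iSuRe-HadCre group, and 54, 858 and 76 liver cells in that order, 1988 in all. The targeted gene Notch1 had a CPM (UMIs of a gene over all gene UMIs of the group, scaled in the usual way) of 138 in control hearts, against 12.6 with iSuRe-Cre and 23.2 with iSuRe-HadCre, and at 160, 21.4 and 30.7 CPM in the 3 liver groups, so that it was lower in each iSuRe group than in the control of its tissue. WPRE, a transgene sequence, stood at 562 CPM in control heart, 63.5 CPM with iSuRe-Cre and 1055 CPM with iSuRe-HadCre, and at 396, 105 and 1070 CPM in the livers, so that the controls held more of it than the iSuRe-Cre groups. The RNA outside cells, summed over near-empty barcodes, held 160 CPM of it, more than either iSuRe-Cre group. Median depth per cell ran from 7322 UMIs (iSuRe-HadCre heart) to 16379 (iSuRe-Cre heart). Genes of the other tissue placed the share of free RNA, the RNA carried in the fluid of each droplet, at 14.2% in iSuRe-Cre heart. The estimate was 2.50% in control heart, 1.72% in iSuRe-HadCre heart and 12.9 to 21.4% in the liver groups. Haemoglobin genes took 5.71% of free RNA, but 0.117% of UMIs in iSuRe-Cre heart and 0.208 to 0.396% in the liver groups. These levels are below what the estimates for those groups would bring in, so those estimates are too high.

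In the hearts the members took the largest share of UMIs in iSuRe-Cre cells and the smallest in iSuRe-HadCre cells. Control heart cells spent 2.29% of their UMIs on the 93 members (2.27 to 2.31), iSuRe-Cre heart cells 2.59% (2.58 to 2.60) and iSuRe-HadCre heart cells 2.10% (2.08 to 2.11). The ratio was thus 1.13 for iSuRe-Cre over control (1.12 to 1.14), 0.915 for iSuRe-HadCre over control (0.906 to 0.925) and 0.811 for iSuRe-HadCre over iSuRe-Cre (0.803 to 0.818). Single cells overlapped widely between the groups. The quartiles of cells lay at 1.81 and 2.59% for the control, at 2.28 and 2.89% for iSuRe-Cre and at 1.64 and 2.44% for iSuRe-HadCre hearts. The 3 comparisons use the same 3 samples and are not independent.

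**Figure D1:**
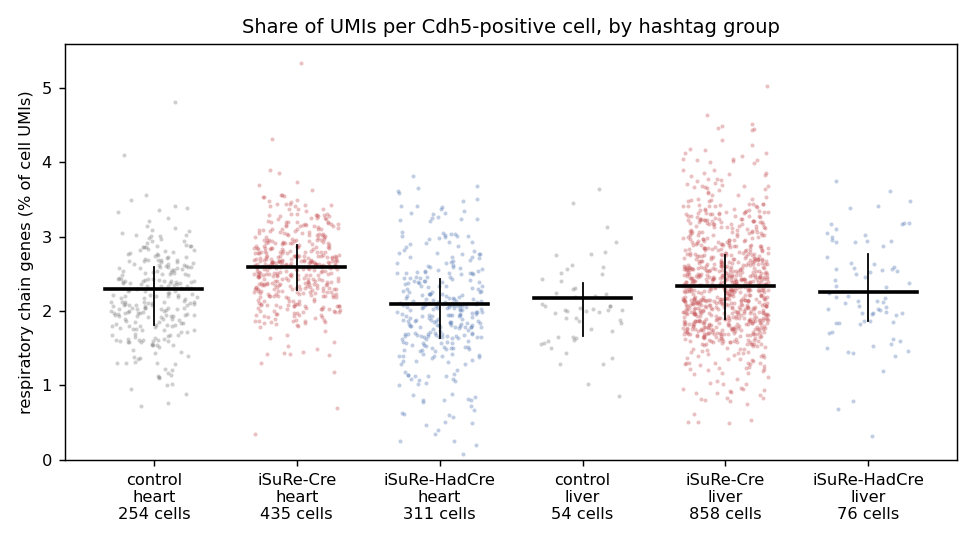
Each dot is 1 Cdh5-positive cell, placed by the percent of its gene UMIs that fell on the nuclear respiratory chain genes, in each of the 6 hashtag groups (grey control, red iSuRe-Cre, blue iSuRe-HadCre). The thick bar is the share of the summed UMIs and the thin line spans the quartiles of cells; the heart bars lie at 2.29, 2.59 and 2.10% and the liver bars at 2.17, 2.33 and 2.25%.

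The difference between the hearts ran through all 4 complexes. In iSuRe-Cre over control heart, the summed ratio was 1.13 for complex I, 1.12 for complex III, 1.11 for complex IV and 1.14 for ATP synthase. In iSuRe-HadCre over control heart the same sums gave 0.936, 0.876, 0.892 and 0.923. The complex I assembly factors, which build the enzyme without staying in it, gave 1.14 (1.05 to 1.23) and 1.02 (0.921 to 1.13). Subunits encoded in mitochondrial DNA were instead lower in both iSuRe hearts. Their summed level was 19274 CPM in control heart, 16923 CPM with iSuRe-Cre and 16359 CPM with iSuRe-HadCre, a ratio to control of 0.878 (0.870 to 0.887) for the first and 0.849 (0.839 to 0.859) for the second. Cells were filtered on mitochondrial transcripts below 5%, which bounds this sum from above.

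Member by member the shift was small and broad. In iSuRe-Cre over control heart, 74 of the 86 members with at least 50 UMIs over both groups had a ratio above 1 (86.0%, against 44.0% of all features), and the median log2 ratio, with 10 CPM added, was 0.17 for members and -0.04 for all features. In iSuRe-HadCre over control heart, 23 of 84 members were above 1 (27.4% against 65.5%), with medians of -0.08 and 0.09. In iSuRe-HadCre over iSuRe-Cre heart, 7 of 86 were above 1 (8.14% against 66.2%), with medians of -0.25 and 0.14. Few members passed 1.5-fold. There were 2 above and 0 below in iSuRe-Cre over control heart, where 8.92% of all features were called above and 9.72% below. In iSuRe-HadCre over control heart 1 was above and 1 below (11.5% and 2.32% of all features), and in iSuRe-HadCre over iSuRe-Cre heart 1 was above and 4 below (20.8% and 5.40%). Members above 1.5-fold were 2.33% of those counted in the first comparison and 1.19% in the second, and no difference from the share of all features was tested.

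**Figure D2:**
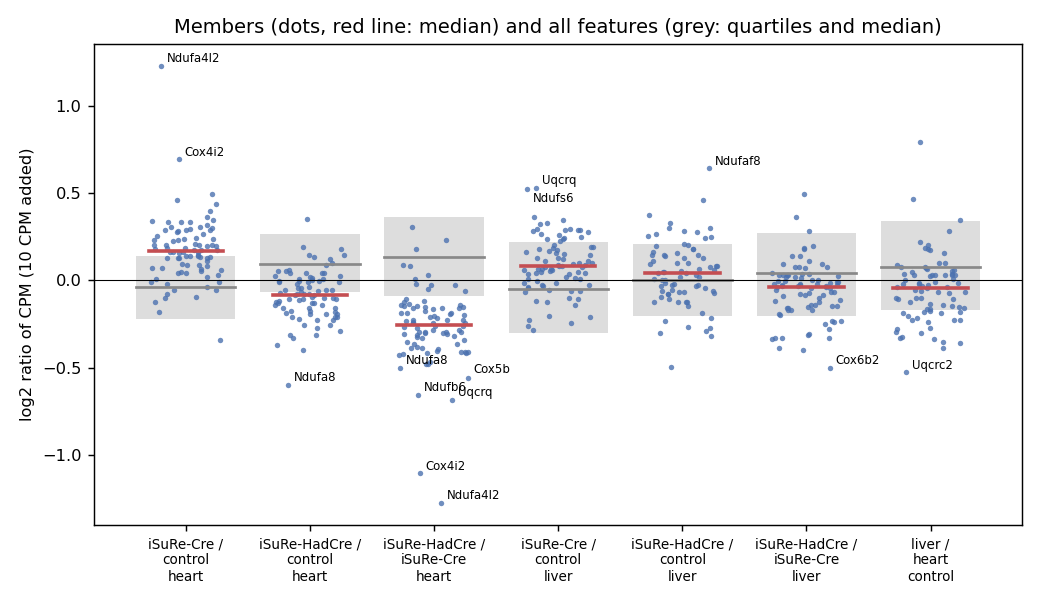
Log2 ratio of CPM with 10 CPM added (vertical axis) for each member with at least 50 UMIs over both groups (blue dots) in the 7 comparisons. The red bar is the member median (0.17, -0.08 and -0.25 in the 3 heart comparisons), and the grey band and line are the quartiles and median of all features (median -0.04, 0.09 and 0.14); members lie mostly above the grey median in iSuRe-Cre heart and below it in iSuRe-HadCre heart.

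Several measures moved with the heart ratios. Cytosolic ribosomal protein genes took 13.8% of UMIs in iSuRe-HadCre, 17.9% in control and 19.2% in iSuRe-Cre heart. Their ratio to control was 0.773 for iSuRe-HadCre and 1.07 for iSuRe-Cre. With mitochondrial, haemoglobin and ribosomal protein genes left out of the total, the member ratio over control was 1.14 for iSuRe-Cre hearts and 0.869 for iSuRe-HadCre hearts. Depth differed too. In the order control, iSuRe-Cre, iSuRe-HadCre, the shares were 2.12, 2.76 and 2.14% among cells of 2000 to 4000 UMIs (24, 6 and 22 cells), 2.00, 2.57 and 1.92% at 4000 to 8000 UMIs, 2.22, 2.57 and 1.99% at 8000 to 16000 UMIs and 2.42, 2.59 and 2.33% above that. iSuRe-Cre was highest in each of the 4 depth ranges, and iSuRe-HadCre was below control in all except the shallowest. In capillary-gated cells alone, 231, 367 and 269 in number, they were 2.30, 2.64 and 2.10%. The hepatocyte list, genes foreign to heart, stood at 112 CPM in control, 636 CPM in iSuRe-Cre and 76.7 CPM in iSuRe-HadCre heart. Free RNA held 2.62% member UMIs, and subtracting it at its estimated share left ratios of 1.13 and 0.915. Since the estimate for iSuRe-Cre heart was too high, the first of these ratios is not a check. The part of ribosomal protein content in the result was not tested.

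Apart from Ndufa4l2 and Cox4i2, the largest ratios in iSuRe-Cre over control heart among the 86 members with at least 50 UMIs were those of Ndufb6, Uqcrq and Ndufaf8. Uqcrq, a small subunit of complex III, stood at 357 CPM in control heart, 495 CPM with iSuRe-Cre and 304 CPM with iSuRe-HadCre, a ratio of 1.39 in iSuRe-Cre over control (1.30 to 1.48) and 0.614 in iSuRe-HadCre over iSuRe-Cre. Ndufb6, an accessory subunit in the membrane arm of complex I, stood at 121, 174 and 107 CPM, with ratios of 1.44 (1.28 to 1.62) and 0.615. Cox5b, a nuclear subunit of complex IV, stood at 431, 535 and 360 CPM. Each of these 3 was highest in iSuRe-Cre and lowest in iSuRe-HadCre heart, the order of the summed share. Of the 3 genes that encode the same subunit c, Atp5g1 stood at 294, 401 and 285 CPM, Atp5g2 at 534, 648 and 465 CPM and Atp5g3 at 304.9, 359 and 295 CPM, again highest in iSuRe-Cre.

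Ndufa8 and Cox7a2l departed from that order. Ndufa8 stood at 325 CPM in control heart (985 UMIs), 303.2 CPM with iSuRe-Cre (2518 UMIs) and 211 CPM with iSuRe-HadCre (656 UMIs). The ratio of iSuRe-HadCre over control was 0.650 (0.588 to 0.719), the lowest of the 84 members with at least 50 UMIs, while iSuRe-Cre over control gave 0.933 (0.866 to 1.01). The 3 liver groups did not show the low level, standing at 302.9, 315 and 332 CPM, and iSuRe-HadCre over control liver gave 1.10 (0.901 to 1.34). Cox7a2l stood at 329 CPM in control heart, 257 CPM with iSuRe-Cre and 252 CPM with iSuRe-HadCre, so that both iSuRe groups were lower, at ratios of 0.782 (0.725 to 0.844) and 0.766 (0.696 to 0.842). Among the 86 members with at least 50 UMIs it had the smallest ratio in iSuRe-Cre over control heart, where 74 were above 1. In liver it stood at 258 CPM for the control, 317 for iSuRe-Cre and 250.4 for iSuRe-HadCre. Uqcrh, the hinge protein of complex III, was likewise lower in both iSuRe hearts, at 582 and 504 CPM against 635 in control. Cox6b2 passed 1.5-fold above control in iSuRe-HadCre heart, but at 12.9 against 7.92 CPM (40 and 24 UMIs) its interval ran from 0.957 to 2.82.

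The 2 members more than 1.5-fold above control in iSuRe-Cre heart were Ndufa4l2 and Cox4i2, and their UMIs lay in a small number of cells. Ndufa4l2 had 137 UMIs in iSuRe-Cre heart (16.5 CPM), 4 in control (1.32 CPM) and 3 in iSuRe-HadCre heart (0.967 CPM), a ratio of 12.5 over control (4.77 to 46.5). Cox4i2 had 153 UMIs (18.4 CPM), 23 (7.59 CPM) and 10 (3.22 CPM), a ratio of 2.43 (1.56 to 3.94). Only 23 of the 435 cells held any Ndufa4l2, and 10 cells with 3 or more held 122 of the 137 UMIs. All 10 also held Cox4i2, 112 UMIs in all, and all 10 held the pericyte genes Rgs5, at 2307 CPM over the 10, Kcnj8 and Higd1b. Pericytes are the mural cells that wrap capillaries.

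**Figure D3:**
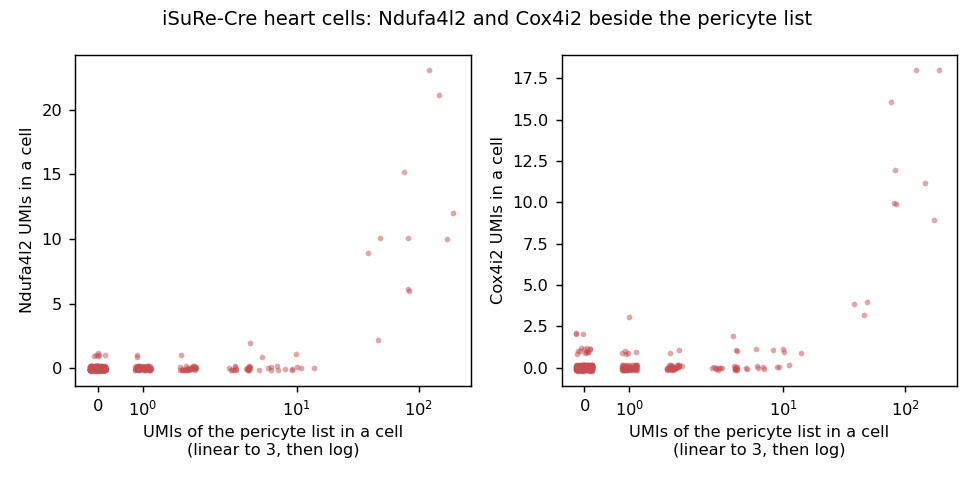
Each dot is 1 of the 435 iSuRe-Cre heart cells, placed by its UMIs of the 7-gene pericyte list (horizontal, linear to 3 and logarithmic above) and its UMIs of Ndufa4l2 (left) or Cox4i2 (right), with small random shifts. The 10 cells with 3 or more Ndufa4l2 UMIs hold 122 of 137 Ndufa4l2 UMIs and 112 of 153 Cox4i2 UMIs and have 38 to 190 pericyte-list UMIs; 1 further cell with 46 pericyte-list UMIs has 2 Ndufa4l2 and 3 Cox4i2 UMIs.

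The pericyte list as a whole stood at 168 CPM in iSuRe-Cre heart, against 56.4 in control and 49.0 in iSuRe-HadCre heart, with none of its 7 genes at 0 in any of the 3. Cells with at least 3 pericyte UMIs over at least 2 genes, a limit set after these values were seen, numbered 37, 11 and 12. Without them Ndufa4l2 was at 1.26 CPM in iSuRe-Cre heart and 1.46 in control, a ratio of 0.860 (0.240 to 3.82) on 9 and 4 UMIs, and Cox4i2 at 4.18 and 6.57 CPM, a ratio of 0.637 (0.344 to 1.21) on 30 and 18 UMIs. Without those cells neither was above control, and both intervals include 1. The ratios over all cells also depended on how cells were assigned, at 4.57 for Ndufa4l2 and 1.52 for Cox4i2 with HTODemux, a tool that sets a cutoff for each hashtag from its own background. The ratio over all members was 1.13 with and without those cells. The 10 cells had a median of 23904 UMIs against 16379 for the group and an endothelial list of 3772 CPM against 4485, and whether they were droplets of 2 cells was not tested. The 8 other genes of the hypoxia list summed to 345 CPM in iSuRe-Cre, 230 in control and 201 in iSuRe-HadCre heart, and 3 of the 7 with enough UMIs were above 1.5-fold in iSuRe-Cre over control, where 8.92% of all features were. One of them, Adm, a vasodilator peptide gene, stood at 100 CPM against 29.4 in control and at 102 without the pericyte-marked cells. The cause of these levels was not tested.

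Other genes of the pathway that the rule did not take up behaved as follows in the hearts. Cytochrome c and its partner in complex III, Cycs and Cyc1, gave a summed ratio of 1.21 in iSuRe-Cre over control (1.12 to 1.31) and 0.971 in iSuRe-HadCre over control (0.882 to 1.07). The 8 complex II genes gave 1.06 (0.995 to 1.13) and 0.991, and the 12 tricarboxylic acid cycle genes 1.07 (1.02 to 1.12) and 0.991. None of these genes passed 1.5-fold in either comparison, where 8.92% and 11.5% of all features were above and 9.72% and 2.32% below. The 17 complex IV assembly genes gave 1.10 and 0.911, with 1 of 17 above 1.5-fold in the first (8.92% of all features) and 3 of 15 with enough UMIs below in the second (2.32% of all features). The ATP synthase inhibitor Atpif1 stood at 520 CPM in control heart, 579 with iSuRe-Cre and 511 with iSuRe-HadCre. The 11 regulators of mitochondrial biogenesis gave 0.970 (0.902 to 1.04) and 1.13 (1.04 to 1.23), and Ppargc1a, the coactivator often used to mark that programme, had only 4, 12 and 12 UMIs in the 3 hearts.

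Over all cells the differences were smaller in the livers. The direction of the comparisons with iSuRe-Cre depended on how cells were assigned, while iSuRe-HadCre over control stayed between 1.00 and 1.10 over 13 alternatives. Control liver cells spent 2.17% of UMIs on the members (2.14 to 2.21), iSuRe-Cre liver cells 2.33% (2.32 to 2.34) and iSuRe-HadCre liver cells 2.25% (2.21 to 2.29). The ratios were 1.07 for iSuRe-Cre over control (1.06 to 1.09), 1.03 for iSuRe-HadCre over control (1.01 to 1.06) and 0.964 for iSuRe-HadCre over iSuRe-Cre (0.948 to 0.979). With a hashtag minimum of 10 UMIs the first became 0.985 and the last 1.10, and with HTODemux they became 0.952 and 1.07. Of 84 members, 61 were above 1 in iSuRe-Cre over control (72.6% against 45.0% of all features) and 0 passed 1.5-fold, where 14.9% of all features were called above and 16.6% below. In iSuRe-HadCre over control 1 of 76 was above 1.5-fold and 0 below (6.84% and 7.32% of all features), and in iSuRe-HadCre over iSuRe-Cre 1 of 84 was above and 1 below (14.0% and 14.0%). The first of these was Ndufaf8, a complex I assembly factor, at 80.5 CPM against 48.1, and the other pair was Ndufaf1, another assembly factor, at 19.0 against 10.6 CPM, and Cox6b2 at 8.78 against 16.6 CPM; the intervals of the last 2 included 1.

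As in heart, Uqcrq was among the members furthest above control in iSuRe-Cre liver, at 395 against 271 CPM (ratio 1.46, 1.25 to 1.71), beside Ndufs6, a complex I subunit, at 147 against 99.4 CPM (1.48, 1.15 to 1.94). The subunits encoded in mitochondrial DNA again lay below control, with a ratio of 0.865 in iSuRe-Cre over control (0.851 to 0.879) and 0.894 in iSuRe-HadCre over control (0.875 to 0.914). Ribosomal protein genes took 14.9% of UMIs in iSuRe-HadCre, 15.3% in control and 18.8% in iSuRe-Cre liver. The makeup of the liver groups differed: sinusoidal-gated cells, the lining of the liver's leaky capillaries, made up 187 of the 858 iSuRe-Cre cells, 4 of the 76 iSuRe-HadCre cells and none of the 54 control cells. Within iSuRe-Cre liver these sinusoidal-gated cells spent 1.99% of UMIs on the members (1.97 to 2.01), against 2.61% (2.59 to 2.64) in the 141 capillary-gated cells of the same group. That gap was larger than any between the liver groups. Capillary-gated cells spent 2.20% in control liver (17 cells) and 2.30% in iSuRe-HadCre liver (23 cells). Among capillary-gated cells iSuRe-Cre over control liver was thus 1.19, above the 1.07 over all cells. Hepatocyte-list genes reached 582 CPM among iSuRe-Cre liver cells. Control liver cells held only 76.9 CPM of them and iSuRe-HadCre liver cells 55.6 CPM, both under the 112 CPM of control heart. The tissue of each group rests on its hashtag label and was not tested, which limits the liver comparisons and those between liver and heart.

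Between the 2 controls, liver cells spent 2.17% and heart cells 2.29% of UMIs on the members, a ratio of 0.950 (0.932 to 0.967). It was 0.997 for complex I and 0.912 for ATP synthase, and 31 of 81 members were above 1 (38.3% against 57.9% of all features). Of the 81 members with at least 50 UMIs, the second, uncertain Atp5o feature alone passed 1.5-fold, at 33.7 against 15.2 CPM, where 15.9% of all features were called above and 9.29% below. Among the same 81, the core subunit Uqcrc2 of complex III was lowest relative to heart, at 89.7 against 134 CPM. The ratio of the summed share turned to 1.05 with HTODemux, 1.03 with Cdh5 at 1 UMI or more and 1.02 with no Cdh5 criterion. No direction is therefore given for the summed share. In contrast the mitochondrially encoded subunits were 1.34 times as high in control liver as in control heart (1.32 to 1.37).

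Cell types were then compared across all passing barcodes, hashtagged or not, by gates of at least 10 UMIs over 3 or more genes of a marker list and 3 times any other list. Of the 14348 barcodes, 7743 were gated to 1 list, 2746 passed a list without that lead and 3859 passed none. In all 13 types had at least 20 cells. Besides endothelial-like cells they included keratinocyte-, chondrocyte- and neuron-like cells that hearts and livers are not known for, and apart from endothelial-like (42.6% hashtagged) and lymphocyte-like cells (60.0%) at most 16.2% of a type carried 1 of the hashtags, so their tissue is not known. Endothelial-like cells had the lowest summed share, 2.32% (2.31 to 2.32; 3755 cells). Chondrocyte-like cells followed at 2.45%, mesenchymal-like at 2.56% and neutrophil lineage-like at 2.67%. Not every endothelial group was lowest. Cdh5-positive iSuRe-Cre heart cells, at 2.59%, and Cdh5-positive barcodes under every hashtag minimum, at 2.63%, lay above chondrocyte-like and mesenchymal-like cells. Macrophage-like and neural progenitor or glia-like cells, both at 2.81%, lymphocyte-like and smooth muscle-like cells, both at 2.88%, and peripheral neuron-like cells at 2.91% had neighbouring intervals that overlapped. The summed share weights deep cells: the median of single cells was 2.25% in the 20 lymphocyte-like cells and 2.27% in endothelial-like cells, so by that measure endothelial-like cells were not the lowest. Keratinocyte-like cells reached 3.01%, erythroid-like 3.71% (3.69 to 3.74) and hepatocyte-like cells 3.82% (3.80 to 3.83). The hepatocyte-like ratio to endothelial-like cells was 1.65 and the erythroid-like ratio 1.60.

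**Figure D4:**
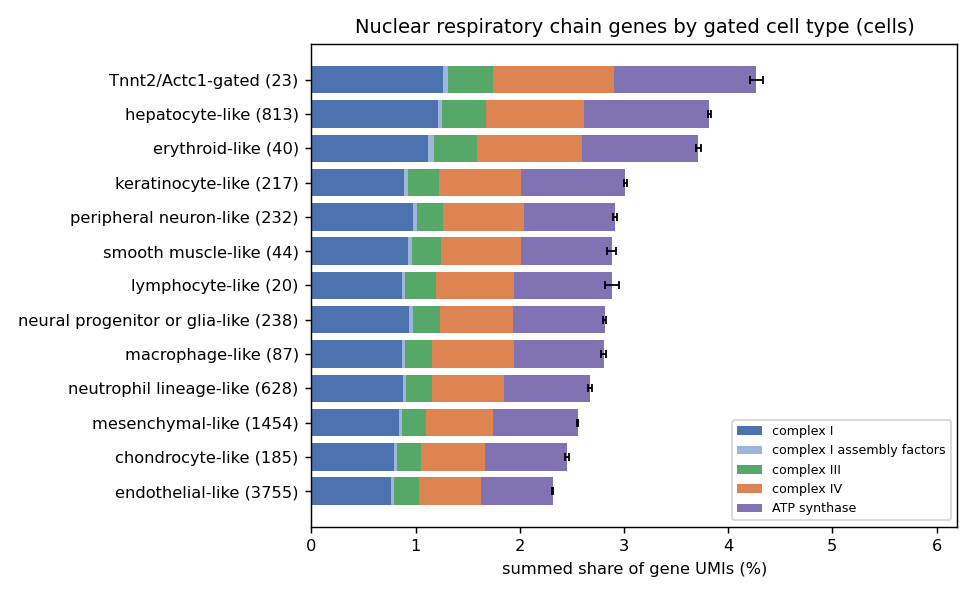
Summed share of gene UMIs on the nuclear respiratory chain genes (horizontal, percent) in the 13 gated types, with the number of cells in brackets and the colours giving the complexes; error bars are exact 95% intervals of the whole share, for counting error. Endothelial-like cells lie lowest at 2.32%, hepatocyte-like cells at 3.82% and the cells gated by Tnnt2 and Actc1, a mixed set, highest at 4.27%.

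The gap was spread over most members. Endothelial-like cells were the lowest of the 13 types for 31 of the 88 members with at least 200 UMIs (35.2%, against 3.79% of 13151 features) and the highest for 1 (1.14% against 13.4%). That one was Ndufa8, at 302.6 CPM in endothelial-like cells and 129 to 267 CPM elsewhere, with erythroid-like cells next. The features in this count were not matched to the members for level. Totals ran from 253068 UMIs in lymphocyte-like to 36037713 in endothelial-like cells. The median log2 range over types was 1.08 for members and 1.69 for all features. The part of count depth in these rank shares was not tested. Hepatocyte-like cells had 56 of 90 members above 1.5-fold and 3 below (21.0% and 42.9% of all features), and erythroid-like cells 49 and 6 of 90 (20.8% and 56.5%). Keratinocyte-like cells had 18 and 4 of 90 (23.1% and 36.4%), and chondrocyte-like cells 3 and 6 of 90 (25.8% and 30.4%). Peripheral neuron-like cells had 24 above and 3 below of 89 (29.8% and 30.2%), lymphocyte-like cells 17 and 8 of 89 (21.8% and 46.8%), smooth muscle-like cells 14 and 4 of 89 (23.5% and 32.2%) and neural progenitor or glia-like cells 13 and 4 of 90 (31.1% and 30.4%). The other types were macrophage-like cells, with 8 and 5 of 89 (17.0% and 41.1%), mesenchymal-like cells, with 7 and 6 of 90 (30.2% and 24.4%), and neutrophil lineage-like cells, with 4 and 4 of 90 (16.8% and 41.1%). Cox7a2l went against the sum, at 192 CPM in hepatocyte-like, 186 in erythroid-like and 288 CPM in endothelial-like cells. Depth and composition differed between these types. Erythroid-like cells had a median of 57871 UMIs and 32.3% ribosomal protein UMIs, endothelial-like cells 7381 UMIs and 16.8%, and hepatocyte-like cells 4238 UMIs and 21.8%. Without mitochondrial, haemoglobin and ribosomal genes in the total, the ratios to endothelial-like cells were 1.79 in hepatocyte-like and 1.99 in erythroid-like cells.

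Some members varied far more between types than the rest. Atp5g1 stood at 322 CPM in endothelial-like, 997 in hepatocyte-like and 1261 in erythroid-like cells, whereas Atp5g2, which encodes the same mature subunit, stood at 563, 937 and 659 CPM. Ndufa6, a complex I subunit, was highest in hepatocyte-like cells at 521 CPM against 130 to 315 CPM in the other types. Among the assembly factors Ndufaf6 was highest in hepatocyte-like cells at 51.6 CPM and lowest in smooth muscle-like cells at 6.58 CPM. Cox6b2, named as the testis form of Cox6b1, reached 156 CPM in erythroid-like cells, 17.3% of the UMIs of the pair (15.7 to 19.1), against 1.89% in endothelial-like cells and 5.01% in free RNA. Atpif1, which inhibits ATP synthase, stood at 1757 CPM in erythroid-like and 543 CPM in endothelial-like cells.

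Of the 13 types, Ndufa4l2 was highest in the 44 smooth muscle-like cells, at 60.8 CPM and 5.85% of the pair with Ndufa4 (4.16 to 7.98). It made up 0.344% of the pair in endothelial-like cells and 1.28% in free RNA. No pericyte type was among the 13, and the smooth muscle-like cells held 424 CPM of the pericyte list. The 37 pericyte-marked cells of iSuRe-Cre heart held Ndufa4l2 at 113 CPM, above the smooth muscle-like level. Cox4i2 made up 4.23% of the pair with Cox4i1 in chondrocyte-like cells (3.49 to 5.06), 1.99% in smooth muscle-like and 0.722% in endothelial-like cells, and 1.50% in free RNA, so that the endothelial level does not exceed that of free RNA. Of the testis-type forms, Cox7b2 had 42 UMIs and Cox8c 2 UMIs in all passing barcodes. The pair shares compare types for 1 gene pair, since UMIs were not divided by transcript length.

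**Figure D5:**
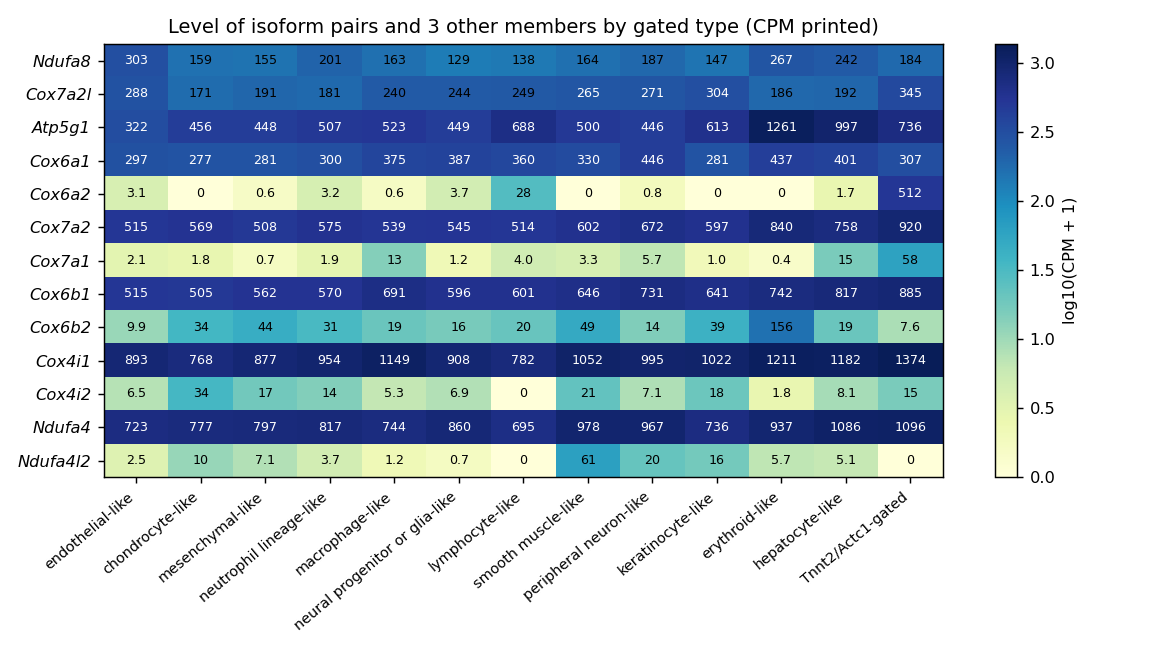
Level in CPM (printed in each cell, colour on a log10 scale of CPM plus 1) of 13 members in the 13 gated types, ordered by summed share. Ndufa8 is highest in endothelial-like cells (302.6 CPM), Atp5g1 and Cox6b2 in erythroid-like cells (1261 and 156 CPM), Cox6a2 in the Tnnt2/Actc1-gated cells (512 CPM) and Ndufa4l2 in smooth muscle-like cells (60.8 CPM).

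The 23 cells gated by the cardiomyocyte list had the highest share, 4.27% (4.21 to 4.33), with 66 of 89 members above 1.5-fold and 2 below endothelial-like cells (19.5% and 46.0% of all features). Their leading 10 genes held Mylpf, Myl1, Tnnc2 and Acta1, known from skeletal muscle, beside Ttn, found in all striated muscle, and Myl4, Tnnt2, Myl3, Tnnc1 and Tnni1, known from cardiac, developing or slow muscle. The gate thus did not single out 1 kind of muscle, and they are named here by Tnnt2 and Actc1, genes of the gating list, and not as a heart cell type. None carried a hashtag. Of them, 15 had UMIs of the skeletal myogenic list, with 546 UMIs of Myog over 14 cells, and 2 UMIs of the cardiac troponin Tnni3. The other 8 had no Myog or Myod1 and held 174 Tnni3 UMIs over 7 cells. Split this way after the values were seen, the 15 cells spent 3.28% of UMIs on the members (3.21 to 3.34), from 2.65 to 4.28% in single cells, and the 8 cells 7.17% (7.02 to 7.33), from 2.41 to 11.8% in single cells.

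Both sets used the muscle form of Cox6a. Cox6a2 made up 66.2% of the pair with Cox6a1 in the 15 cells (59.3 to 72.6) and 55.9% in the 8 cells (46.5 to 65.1), against 1.04% in endothelial-like cells and 3.76% in free RNA. Cox7a1 was seen mainly in the 8 cells, at 22 UMIs and 11.5% of the pair with Cox7a2 (7.36 to 16.9), against 1 UMI and 0.508% in the 15 cells (0.0129 to 2.80). Cox8b made up 1.75% of the pair with Cox8a in the 8 cells and 3.32% in the 15 cells, intervals that overlapped. In the endothelial groups the muscle forms stayed low: Cox6a2 had 13 UMIs in control hearts, 27 with iSuRe-Cre and 3 with iSuRe-HadCre, at most 4.29 CPM, under the 10.8 CPM of free RNA.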

How the data were processed

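The deposited files hold 1 unfiltered 10x matrix of raw UMI counts with gene and hashtag features. Per the submitters' notes and the methods, the authors made these counts with Cell Ranger 7.1.0 on GRCm38 with Ensembl 98 plus transgene sequences; whether reads were taken from the 3′ or 5′ end is not given in the sources used here. Seurat is named for later steps. Sequences and gene positions came from RefSeq (GRCm38.p6) and GENCODE vM21 (GRCm38).

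Barcodes with 2000 to 75000 gene UMIs, over 500 genes, and mitochondrial and haemoglobin shares below 5% were kept. Groups came from the hashtag labels. Summed member UMIs were divided by summed gene UMIs (Python 3.11.15, scipy 1.17.1); shares have exact binomial (Clopper-Pearson) and ratios exact conditional 95% intervals, which cover counting error only, since UMIs of 1 library are not replicates. No p-value was computed. Features with at least 50 UMIs over both groups were counted above or below 1.5-fold, and log2 ratios have 10 CPM added. Free RNA is the sum of barcodes with 10 to 100 UMIs. The ratio and fold rule were tested on simulated data. No doublet caller was run; barcodes over a second hashtag minimum were left out. HTODemux was run in Seurat 5.3.0 on R 4.3.3. The 7 hashtag features with no group were not used. Members, gene lists and marker lists were chosen with earlier results of these data known. Genes named are the 7 isoform pairs, Cox7a2l, Cox8c, the Atp5g genes, Atpif1, Ppargc1a, the 5 members with the largest and smallest ratio in a comparison, and the 10 with the largest range over types; Cdh5, Notch1, WPRE, Adm and the pericyte and muscle markers were named after their values were seen. Alternatives are given in the closing section.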

Additional observations from a re-analysis of the deposited data

Results flagged for a closer look

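The iSuRe-HadCre over control ratio of the summed member share lay on opposite sides of 1 in the 2 tissues, at 0.915 in heart and 1.03 in liver. Each value compares 1 sample with 1 sample, and the difference between the tissues was not tested.

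Outside the 6 groups, 5585 Cdh5-positive barcodes lay under every hashtag minimum. They spent 2.63% of their UMIs on the members (2.62 to 2.63), above the 2.29% of control heart and the 2.17% of control liver cells. Their median depth was 4220 UMIs, and free RNA held 2.62%. Hepatocyte-list genes stood at 1649 CPM in these barcodes, against 76.9 CPM in control liver and 112 CPM in control heart cells. Haemoglobin genes took 0.898% of their UMIs. The part of depth, free RNA and hepatocyte RNA in this level was not tested.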

How the results depend on the processing

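With 1 sample per group, none of the alternatives below is a replicate check, and depth limits single members in the livers, where control cells held 624048 UMIs in all. No paired analysis was possible because the labels give no replicate numbers and each group is 1 sample. The last 3 settings named for the groups, the UMI minimums and all settings for cell types were chosen after seeing the data, and the cause of the shifts was not tested.

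Over 13 alternatives the 3 heart ratios kept their side of 1. In the order iSuRe-Cre over control, iSuRe-HadCre over control and iSuRe-HadCre over iSuRe-Cre heart, a hashtag minimum of 10 UMIs gave 1.11, 0.952 and 0.854, and a total without mitochondrial, haemoglobin and ribosomal genes 1.14, 0.869 and 0.759. For the first and last, HTODemux gave 1.09 and 0.845, WPRE above 0.5 in the iSuRe groups 1.10 and 0.830, the mean of cell shares 1.18 and 0.776, capillary-gated cells 1.15 and 0.795, and cells of 4000 to 16000 UMIs 1.20 and 0.763. For the second and last, no Cdh5 criterion gave 0.939 and 0.837, and leaving out cells with pericyte UMIs 0.905 and 0.801. Cdh5 at 1 UMI or more gave 0.818 for the last.

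In liver, in the same order, a hashtag minimum of 10 gave 0.985, 1.09 and 1.10, Cdh5 at 1 UMI or more 1.01, 1.00 and 0.996, and cells of 4000 to 16000 UMIs 1.16, 1.10 and 0.944. For the first and last, HTODemux gave 0.952 and 1.07, no Cdh5 criterion 1.02 and 1.03, the total without those genes 1.12 and 0.919, and capillary-gated cells 1.19 and 0.880. For the first and second, a mitochondrial limit of 10% gave 1.09 and 1.06, the mean of cell shares 1.14 and 1.10, and free RNA subtraction 1.12 and 1.06. For the last, WPRE above 0.5 gave 0.932 and leaving out pericyte UMIs 0.943. Control liver over heart became 0.996 (hashtag minimum 10), 1.05 (HTODemux), 1.03 (Cdh5 at 1 UMI), 1.02 (no Cdh5 criterion), 0.922 (mitochondrial limit of 10%), 0.928 (total without those genes) and 0.9003 (free RNA subtracted). The estimated shares of free RNA were too high for iSuRe-Cre heart and the livers, so ratios from their subtraction are not a check.

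Without cells with pericyte UMIs, Ndufa4l2 in iSuRe-Cre over control heart became 0.860 and Cox4i2 0.637. Ndufa8 in iSuRe-HadCre over control heart ran from 0.617 to 0.708 over 13 alternatives. With a minimum of 200 UMIs the members beyond 1.5-fold numbered 0 of iSuRe-Cre over control, 1 of iSuRe-HadCre over control and 2 of iSuRe-HadCre over iSuRe-Cre in heart, and 0 in iSuRe-HadCre over control liver, iSuRe-HadCre over iSuRe-Cre liver and control liver over heart. With a minimum of 20 they numbered 4 in iSuRe-HadCre over control heart, 2 in each of iSuRe-Cre and iSuRe-HadCre over control liver and 3 in control liver over heart.

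Against endothelial-like cells, a gate of 5 UMIs gave ratios of 1.63 in hepatocyte-like, 1.59 in erythroid-like, 1.29 in keratinocyte-like and 1.78 in Tnnt2/Actc1-gated cells. The total without mitochondrial, haemoglobin and ribosomal genes gave 1.79, 1.99, 1.52 and 2.01, and the mean of cell shares 1.56, 1.64, 1.32 and 1.95.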
